A study of Rattus norvegicus with 9 samples.

Results

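NRF2 targets and antioxidant enzymes were followed as a set of 36 genes listed by symbol: the NRF2 switch and its partners, genes of glutathione and thioredoxin metabolism, pentose phosphate and malic enzyme genes, haem and iron genes, and genes of detoxification and export. The list sets no threshold on measured values, but where a gene had several rows the one with the highest mean was kept. It was drawn up with earlier results of these data known. For 35 of the 36 a row with a single gene symbol was found among the 14506 genes tested, and Pgd was not analysed here. The cells were rat pancreatic stellate cells, the fibroblast-like cells of the pancreas that store retinoids when quiescent and lay down matrix when activated. They came from male Sprague Dawley rats by Nycodenz density gradient, and equal numbers were kept for 72 hours in 10 cm dishes, in Iscove's medium with 10% foetal bovine serum. The dishes differed in the surface: Matrigel, a basement membrane extract (2 arrays); collagen I, the fibre-forming collagen that scars are built of (3 arrays); or bare plastic (4 arrays), the reference. All groups shared strain, sex, medium and time, and the labels name no added agent. Each array's title carries 1 of 4 letters (A, P, S, Z) whose meaning the labels do not give: Matrigel has A and S, collagen A, P and Z, and plastic all 4. Nothing in the labels ties an array to its own animal or culture, and the p-values therefore reflect only array-to-array spread, which may be technical.

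NRF2, encoded by Nfe2l2, is a transcription factor that KEAP1 holds in the cytoplasm and hands to the proteasome. When electrophiles or oxidants modify KEAP1, NRF2 accumulates, pairs with a small MAF protein and binds antioxidant response elements, where BACH1 competes with it as a repressor. Its targets make and recycle glutathione, feed thioredoxin, supply NADPH, sequester iron and conjugate or export electrophiles. In stellate cells oxidants are among the stimuli known to promote activation.

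RefSeq promoter windows (GRCr8, 250 bases before to 50 after the start) were matched for 30 of the 35 genes. The core of the antioxidant response element, TGACNNNGC on either strand, lay in the windows of 9 of those 30, and in 12.1% of 33469 rat promoters. Its form TGACTCAGC lay in 4 of the 30, and in 0.415% of all promoters. This form contains the AP-1 motif TGANTCA, which lay in 6 of the 30 and in 7.33% of all promoters. TTGCATCA, an element bound by ATF4, was in none of the 30 windows and in 0.795% of all promoters. The search was chosen after expression values were known, and a match describes letters in a window, not a bound site. A missing match says little, as the windows are short and bases outside them were not searched. The 4 windows with TGACTCAGC are shown because only Gstp1 among them was called on a matrix, and that of Ugdh because it was the 1 gene lower on both matrices. Capitals mark the TGACNNNGC match.
Gstp1, chr1:210769656-210769955, minus strand: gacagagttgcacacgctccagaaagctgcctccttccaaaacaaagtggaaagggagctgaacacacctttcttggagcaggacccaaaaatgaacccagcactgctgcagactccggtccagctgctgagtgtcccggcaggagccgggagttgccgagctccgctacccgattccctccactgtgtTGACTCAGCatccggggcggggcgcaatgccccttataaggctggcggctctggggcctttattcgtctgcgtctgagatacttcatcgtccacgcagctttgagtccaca
Prdx1, chr5:135383656-135383955, plus strand: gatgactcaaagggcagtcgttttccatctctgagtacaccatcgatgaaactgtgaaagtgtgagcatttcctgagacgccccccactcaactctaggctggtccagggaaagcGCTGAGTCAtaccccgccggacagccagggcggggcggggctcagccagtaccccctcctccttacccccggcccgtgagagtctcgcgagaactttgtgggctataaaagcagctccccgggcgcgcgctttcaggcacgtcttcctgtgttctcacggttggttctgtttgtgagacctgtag
Me1, chr8:96540195-96540494, minus strand: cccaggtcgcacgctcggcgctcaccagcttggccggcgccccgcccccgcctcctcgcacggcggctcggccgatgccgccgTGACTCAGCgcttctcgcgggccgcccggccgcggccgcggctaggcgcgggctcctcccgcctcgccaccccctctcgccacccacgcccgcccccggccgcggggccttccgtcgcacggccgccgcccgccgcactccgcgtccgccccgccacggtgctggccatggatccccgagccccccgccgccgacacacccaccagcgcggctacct
Ephx1, chr13:95263068-95263367, minus strand: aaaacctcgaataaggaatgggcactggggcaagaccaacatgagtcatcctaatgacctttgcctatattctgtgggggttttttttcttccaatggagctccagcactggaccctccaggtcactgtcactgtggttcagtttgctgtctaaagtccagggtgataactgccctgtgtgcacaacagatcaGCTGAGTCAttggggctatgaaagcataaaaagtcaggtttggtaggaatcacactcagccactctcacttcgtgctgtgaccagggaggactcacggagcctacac
Ugdh, chr14:43202268-43202567, plus strand: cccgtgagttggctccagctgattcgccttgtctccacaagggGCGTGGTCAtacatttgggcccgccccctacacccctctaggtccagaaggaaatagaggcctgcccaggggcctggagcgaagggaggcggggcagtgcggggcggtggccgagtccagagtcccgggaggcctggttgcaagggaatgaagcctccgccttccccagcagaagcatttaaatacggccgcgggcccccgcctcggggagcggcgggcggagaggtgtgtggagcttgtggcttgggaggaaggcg
The match began at position -61 from the start in Gstp1, -135 in Prdx1, -167 in Me1, -57 in Ephx1 and -207 in Ugdh.

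Values are log2 expression, 1 row per gene, and differences between surfaces are fitted log2 differences ± SE. Array medians lay between 4.08 and 4.18, and arrays correlated at 0.991 to 0.996 within a surface and 0.975 to 0.989 between surfaces. The mean of 15 stellate and fibroblast markers was 9.82 to 9.87 on Matrigel, 10.36 to 10.51 on collagen and 10.26 to 10.43 on plastic, with Gfap dim on all 3 surfaces (dim meaning a mean under log2 4.25, the 40th percentile of gene means). Some markers of other cells passed the test upward on Matrigel against plastic. They were 3 of 25 macrophage and leukocyte genes (Itgam, Itgb2, Laptm5), 9 of 16 islet genes, 5 of 9 adipocyte genes and 2 of 20 acinar genes. Of all genes 4.52% did so. In the remaining lists, 1 of 10 endothelial genes rose, 0 of 11 duct and epithelial genes were called, and 1 of 3 mesothelial genes fell. Of the 15 stellate and fibroblast markers, 1 rose and 4 fell. The macrophage mean was 7.24 to 7.48 on Matrigel, 6.06 to 6.94 on collagen and 6.05 to 7.04 on plastic, with Marco dim throughout. The islet mean was 5.89 to 6.97 on Matrigel, 4.91 to 5.51 on collagen and 4.72 to 5.46 on plastic, with Chga, Nkx6-1, Neurod1 and Isl1 dim throughout. The acinar mean was 3.75 to 4.32 on Matrigel, 3.34 to 3.62 on collagen and 3.33 to 3.47 on plastic, with 14 of 20 genes dim on every surface. The adipocyte mean was 5.46 to 5.85 on Matrigel, 4.28 to 4.76 on collagen and 4.42 to 4.96 on plastic, with Adipoq, Lep and Cidec dim throughout. In bulk RNA, a change in the number of cells of a type and a change in RNA per cell cannot be told apart.

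On Matrigel, 11 of the 35 genes rose against plastic and 1 fell. They were the cystine carrier Slc7a11 (6.21-fold), the glutathione transferase Gstp1 (3.24-fold), the pentose phosphate enzyme Taldo1 (2.03-fold), and Mafg, Bach1, Gsr, Gpx3, Srxn1, Cat, Tkt and Abcc4, while Ugdh fell. A call was an adjusted p under 0.05 from limma, over all genes. Of all 14506 genes, 10.4% were called in this comparison, 4.52% higher and 5.85% lower. Only 1 of the 35 was dim on all surfaces, while the dim level is the 40th percentile of all genes, so these shares include many dimmer genes. With only genes above that level tested, 12 of the set were higher and 1 lower, among 1632 genes called. That fit tested fewer than 14506 genes, so the 1632 are a larger share of those tested than of 14506. It left out Srxn1 and Osgin1, and the split of the 1632 by direction is not given. The median difference of the 35 genes was 0.26, against -0.01 for all genes tested. Values on the 2 surfaces did not overlap for 18 genes higher and 4 lower on Matrigel, against 13.6% and 16.6% of all genes (30.2% together). With the macrophage mean as a covariate, a fit added after seeing the data, Mafg, Gstp1, Taldo1 and Ugdh were still called, among 469 genes in all. With the islet mean, which follows the Matrigel surface closely, none was called higher or lower, among 32 genes in all. The differences in that fit were 0.79 ± 0.19 for Mafg, 1.62 ± 0.41 for Gstp1, 1.01 ± 0.30 for Taldo1 and -0.69 ± 0.19 for Ugdh, with standard errors larger than in the fit without it. Without the Matrigel A array 4 were called higher and without the S array 7, while the number lower was 1 and 2.

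On collagen the counts were smaller and ran both ways: 3 of the 35 genes rose against plastic (Bach1, Mafg, Sod2) and 4 fell (Gclc, Gsr, Prdx6, Ugdh). Over all genes, 6.12% were called, 2.95% higher and 3.17% lower. The median difference was 0.01 for the 35 genes and 0.00 for all genes. Values did not overlap for 7 genes higher and 7 lower on collagen, against 8.04% and 9.2% of all genes (17.2% together). The number lower was 0 without collagen A, 1 without collagen P or plastic A, and 2 without plastic Z. The number higher was 2 without any 1 array other than collagen P.

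Between the matrices, 4 of the 35 genes were higher on Matrigel than on collagen (Slc7a11, Gstp1, Gsr, Tkt) and 0 were lower. limma called 2.67% of all genes, 1.21% higher and 1.45% lower. At an unadjusted p under 0.05 from limma, 18 of the 35 differed in either direction, as did 2456 of all 14506 genes. The median difference was 0.26, against -0.02 for all genes, and the arrays did not overlap for 19 genes higher and 3 lower on Matrigel, against 13% and 16.4% of all genes (29.5% together). The number higher was 1 without collagen P or Matrigel A, and 2 without plastic A, S or Z. It was 0 with the title letter as a block, among 66 genes called in all, and 0 with those 2 surfaces fitted alone, where 0 genes were called. The 2 comparisons with plastic share its 4 arrays. Likewise those with Matrigel share its 2 arrays and those with collagen its 3, so calls in 2 comparisons are not independent. Bach1 and Mafg were higher on both matrices, Ugdh was lower on both, and Gsr was higher on Matrigel and lower on collagen. No call was made for 20 of the 35 genes in any of the 3 comparisons.

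**Figure D1:**
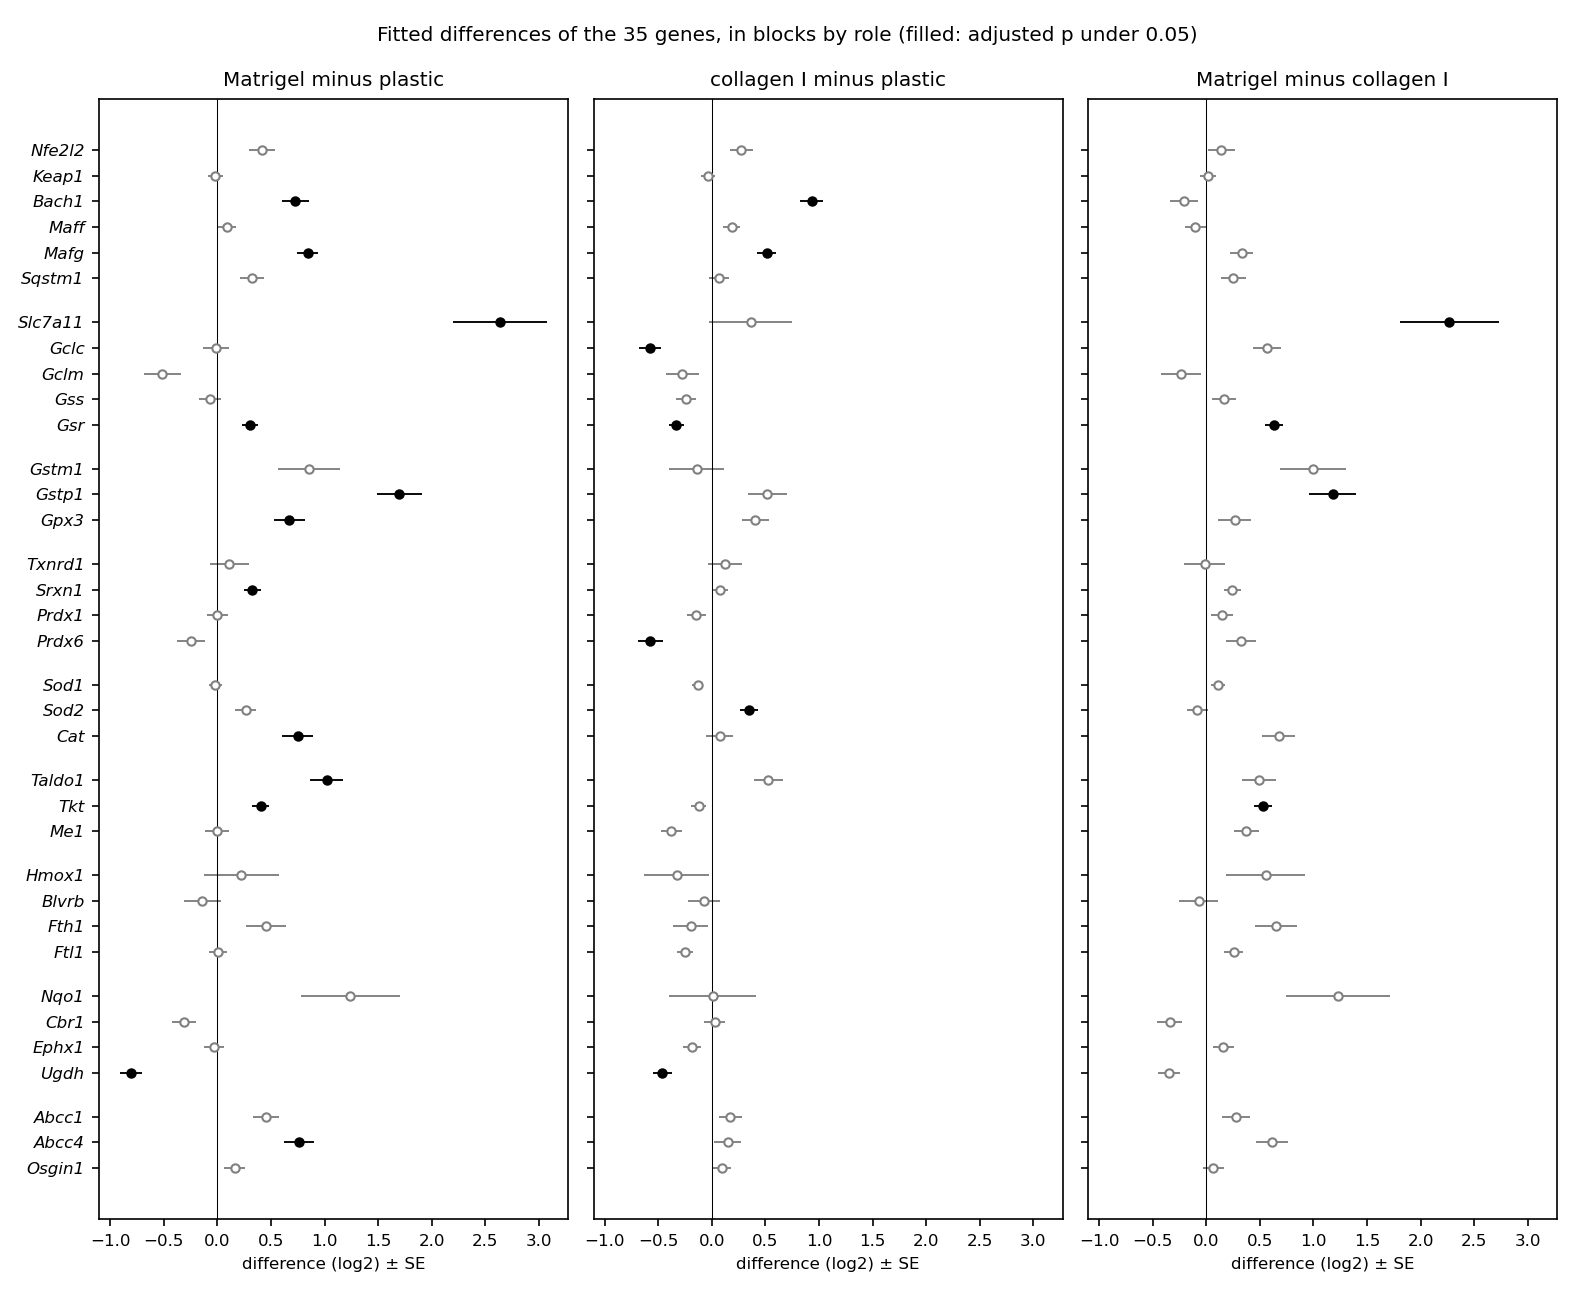
Fitted log2 differences (points) with their standard errors (bars) for the 35 genes in blocks by role, in 3 panels: Matrigel minus plastic, collagen minus plastic and Matrigel minus collagen. Filled points have an adjusted p under 0.05; most filled points of the Matrigel panels lie to the right of 0, while collagen against plastic has 3 to the right and 4 to the left.

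The NRF2 switch comes first. In the order A then S on Matrigel, A, P, Z on collagen, and A, P, S, Z on plastic, which holds for every list of values, Nfe2l2 (Entrez 83619) stood at 9.94 and 9.61 on Matrigel, 9.77, 9.53 and 9.61 on collagen and 9.53, 9.28, 9.37 and 9.26 on plastic. Both Matrigel arrays lay above all plastic arrays, and collagen overlapped plastic by a tie of its lowest array with the highest plastic one. Neither difference passed (0.42 ± 0.12, adjusted p = 0.065 on Matrigel, 95% interval 0.14 to 0.69; 0.28 ± 0.11, adjusted p = 0.197 on collagen, 95% interval 0.03 to 0.52). Without the Matrigel S array the Matrigel difference passed (0.58, adjusted p = 0.0410). Keap1, which encodes the NRF2 anchor, lay between 7.01 and 7.20 on all 9 arrays, with a Matrigel minus plastic difference of -0.02 ± 0.07 (adjusted p = 0.914, 95% interval -0.18 to 0.14). Sqstm1, the autophagy adaptor p62 that can bind KEAP1, differed by 0.32 ± 0.11, adjusted p = 0.108 between Matrigel and plastic, and passed without the plastic S array (adjusted p = 0.0296).

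Of the partners at the response element, Bach1 (Entrez 304127), the haem-sensitive repressor, had 9.08 and 9.34 on Matrigel, 9.40, 9.41 and 9.45 on collagen and 8.47, 8.27, 8.49 and 8.71 on plastic. Every array on a matrix lay above every plastic array, and the difference was 0.73 ± 0.12 on Matrigel (adjusted p = 0.00753) and 0.93 ± 0.11 on collagen (adjusted p = 0.00174). Mafg (Entrez 64188), a small MAF that partners both NRF2 and BACH1, had 7.62 and 7.52 on Matrigel, 7.26, 7.19 and 7.27 on collagen and 6.70, 6.53, 6.85 and 6.83 on plastic. Its 3 groups did not overlap, with Matrigel highest and plastic lowest. Mafg rose by 0.84 ± 0.10 on Matrigel (adjusted p = 0.00172) and by 0.51 ± 0.09 on collagen (adjusted p = 0.0101). The difference between the matrices missed the threshold for both (-0.20 ± 0.13, adjusted p = 0.47 for Bach1; 0.33 ± 0.10, adjusted p = 0.15 for Mafg). With the macrophage mean as a covariate Mafg stayed past the threshold on Matrigel (0.75, adjusted p = 0.0305) and Bach1 did not (0.68, adjusted p = 0.0904). Bach1 was also lost without the Matrigel S array (0.60, adjusted p = 0.0527). Maff, another small MAF, did not pass (0.09 ± 0.09, adjusted p = 0.651 on Matrigel).

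**Figure D2:**
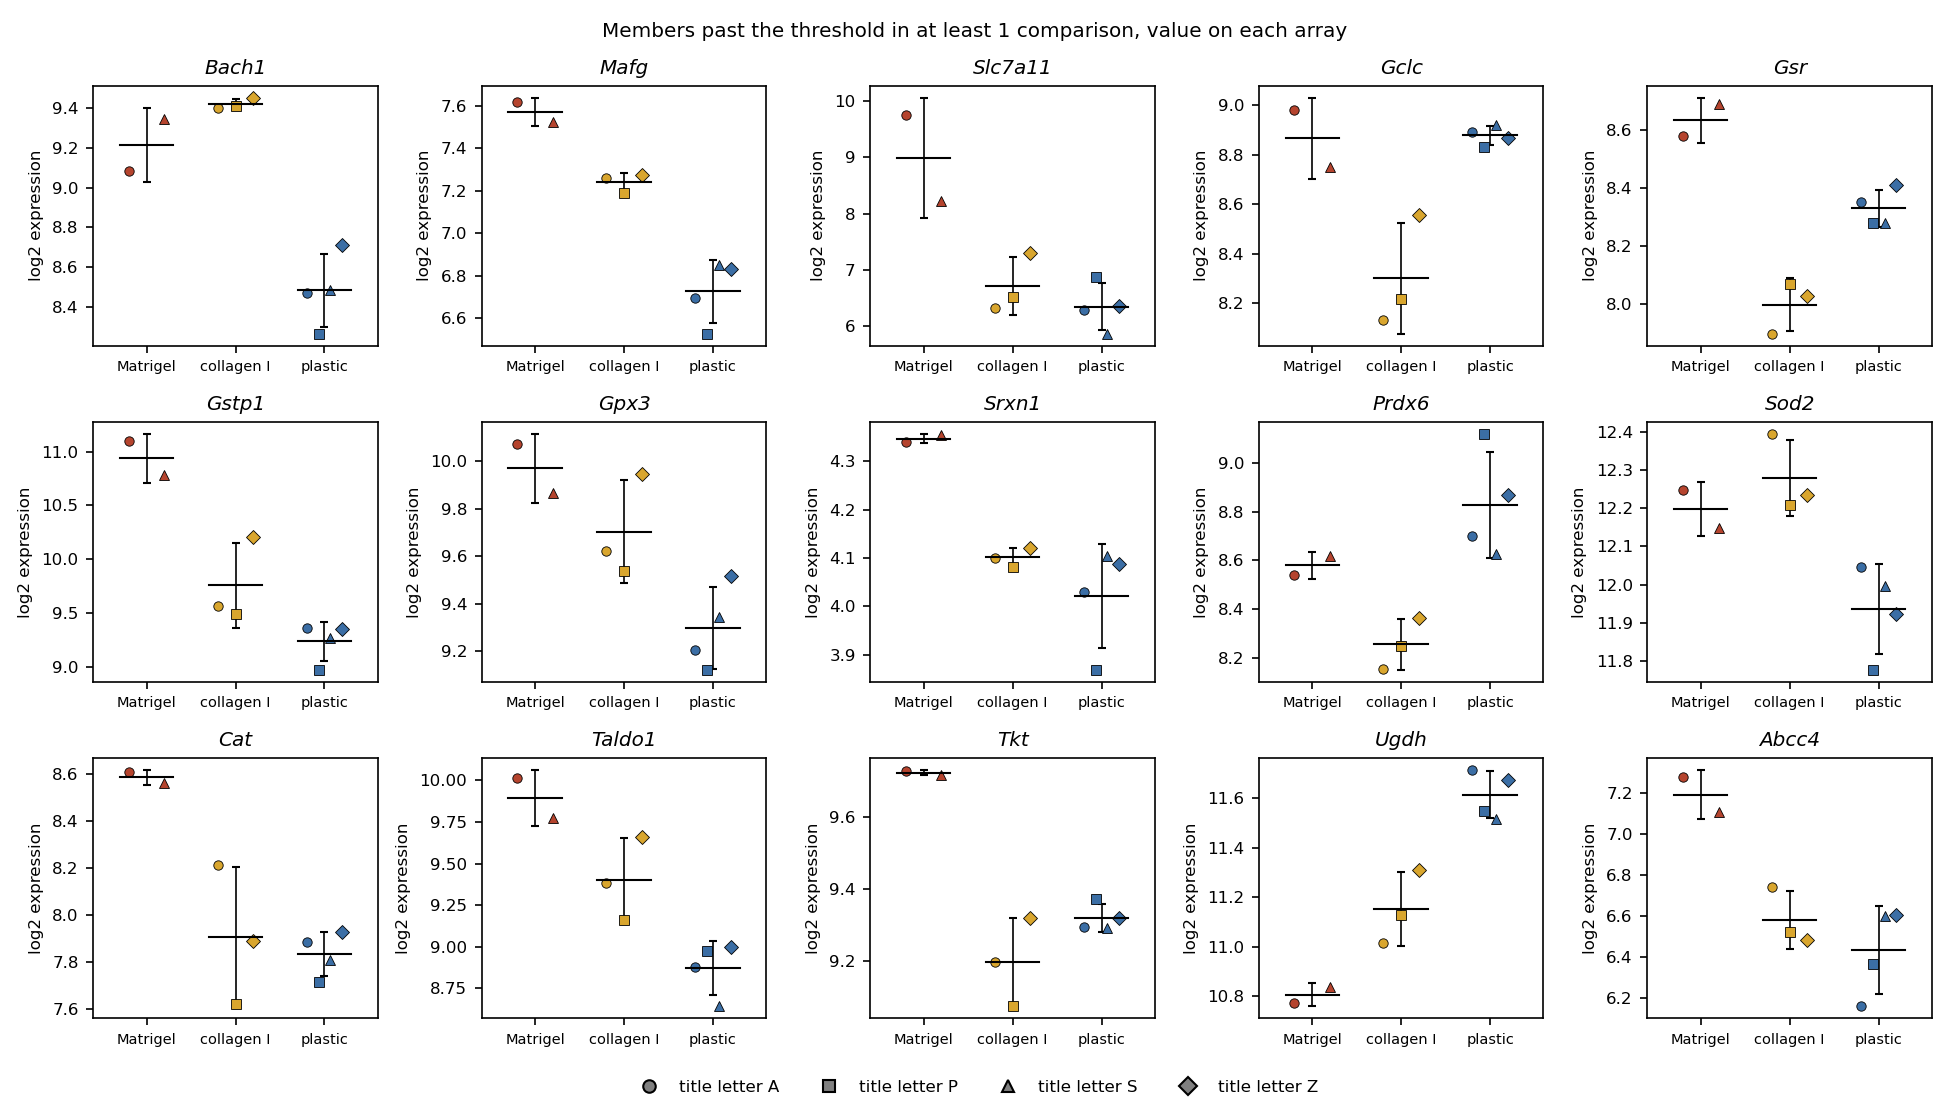
Log2 expression on each array of the 15 genes called in at least 1 comparison, by surface; the marker shape gives the title letter, the long line the mean and the bar 1 SD. Slc7a11 and Gstp1 stand highest on both Matrigel arrays, Mafg has 3 separate groups, and Ugdh is highest on plastic.

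In glutathione synthesis and recycling, 2 of 5 genes rose on Matrigel and 2 of 5 fell on collagen. Slc7a11 (Entrez 310392), the cystine-glutamate exchanger subunit that brings in the limiting amino acid, had 9.74 and 8.23 on Matrigel, 6.32, 6.53 and 7.29 on collagen and 6.29, 6.88, 5.87 and 6.36 on plastic. The 2 Matrigel arrays lay above all others, with A well above S, while collagen and plastic overlapped. The difference was 2.63 ± 0.44 against plastic (adjusted p = 0.00743), and 2.27 ± 0.46 against collagen (4.82-fold, adjusted p = 0.0432). Between arrays of the same letter, Matrigel minus plastic was 3.45 for A and 2.36 for S. Without the Matrigel A array, where the islet mean was also highest (6.97), it was 1.88 (adjusted p = 0.0523), and Matrigel minus collagen was 1.52 (adjusted p = 0.146). The call between the matrices was lost under 14 of 20 alternatives, each single collagen or plastic array left out among them. On collagen Slc7a11 did not pass (0.36 ± 0.39, adjusted p = 0.693).

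Gclc (Entrez 25283), the catalytic subunit of the enzyme that commits cysteine to glutathione, had 8.98 and 8.75 on Matrigel, 8.13, 8.22 and 8.56 on collagen and 8.89, 8.83, 8.92 and 8.87 on plastic. All collagen arrays lay below all plastic arrays, by -0.58 ± 0.11 (adjusted p = 0.0148), while Matrigel overlapped plastic (-0.01 ± 0.12, adjusted p = 0.975). The collagen call was lost without collagen A (adjusted p = 0.0516), collagen P (0.0681) or plastic A (0.0505), and Matrigel exceeded collagen past the threshold without collagen Z (adjusted p = 0.0271). Its modifier subunit Gclm did not pass in any comparison (-0.51 ± 0.17, adjusted p = 0.109 on Matrigel; -0.28 ± 0.15, adjusted p = 0.39 on collagen) except without the Matrigel S array (-0.81 against plastic, adjusted p = 0.0289), nor did Gss, which adds glycine (-0.24 ± 0.09, adjusted p = 0.196 on collagen). Gsr (Entrez 116686), which regenerates reduced glutathione with NADPH, had 8.58 and 8.69 on Matrigel, 7.90, 8.07 and 8.03 on collagen and 8.35, 8.28, 8.28 and 8.41 on plastic. Its groups did not overlap, with Matrigel above plastic and collagen below it. Gsr differed from plastic by 0.30 ± 0.08 on Matrigel (adjusted p = 0.0443) and by -0.33 ± 0.07 on collagen (adjusted p = 0.026), and Matrigel minus collagen was 0.64 ± 0.08 (adjusted p = 0.0138). The Matrigel call was lost under 16 of 20 alternatives, among them every single array left out other than collagen A, and the collagen call with the title letter as a block (-0.34, adjusted p = 0.0599) and without collagen A, collagen Z, plastic A or plastic Z (0.0666 to 0.0824). The call between the matrices was lost with those 2 surfaces fitted alone (adjusted p = 0.128), with the letter block (0.0692) and with the macrophage or islet mean (0.131 and 0.175).

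Among the enzymes that use glutathione, 2 of 3 were called higher on Matrigel and 0 were called on collagen. Gstp1 (Entrez 24426), the pi-class transferase, had 11.10 and 10.78 on Matrigel, 9.57, 9.49 and 10.21 on collagen and 9.37, 8.97, 9.27 and 9.35 on plastic. Every Matrigel array lay above every collagen array, and every collagen array above every plastic array. The rise on Matrigel was 1.70 ± 0.21 against plastic (adjusted p = 0.00208) and 1.18 ± 0.22 against collagen (2.26-fold, adjusted p = 0.0328), while collagen minus plastic did not pass (0.52 ± 0.18, adjusted p = 0.163). The call against plastic held with the macrophage mean as a covariate (1.37, adjusted p = 0.0301) but not with the islet mean (1.62, adjusted p = 0.194). The call against collagen was lost under 12 of 20 alternatives. Gpx3 (Entrez 64317), a secreted glutathione peroxidase, had 10.07 and 9.87 on Matrigel, 9.62, 9.54 and 9.95 on collagen and 9.21, 9.12, 9.34 and 9.52 on plastic. Its collagen arrays lay above all plastic arrays, and the difference did not pass (0.40 ± 0.13, adjusted p = 0.118). Both Matrigel arrays lay above all plastic arrays (0.67 ± 0.14, adjusted p = 0.0213), and the call was lost without either Matrigel array (adjusted p = 0.144 without A, 0.0508 without S) and without plastic A (0.0592). Gstm1, a mu-class transferase, had 10.16 on the Matrigel A array and 8.98 on S, and its difference from plastic did not pass (0.85 ± 0.29, adjusted p = 0.107). Without the S array it did (1.44, adjusted p = 0.00897), and likewise against collagen (adjusted p = 0.0229).

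The thioredoxin and peroxiredoxin genes gave 1 call on each matrix out of 4. Prdx6 (Entrez 94167), a peroxidase that also acts on phospholipids, had 8.54 and 8.62 on Matrigel, 8.15, 8.25 and 8.36 on collagen and 8.70, 9.12, 8.62 and 8.87 on plastic. The collagen arrays lay below all plastic arrays (-0.57 ± 0.12, adjusted p = 0.0244), and the Matrigel difference did not pass (-0.25 ± 0.13, adjusted p = 0.313). Without collagen A, collagen P or plastic Z the collagen call was lost (adjusted p = 0.0687 to 0.0865). Srxn1 (Entrez 296271), which repairs overoxidised peroxiredoxins, had 4.34 and 4.35 on Matrigel, 4.10, 4.08 and 4.12 on collagen and 4.03, 3.87, 4.10 and 4.09 on plastic. It was dim on collagen and plastic, so the difference of 0.32 ± 0.08 on Matrigel (adjusted p = 0.0353) is bounded only as at least 0.10 above the dim level, and it was lost under 16 of 19 alternatives. Txnrd1, the cytosolic thioredoxin reductase and a classical NRF2 target, overlapped on all surfaces (0.11 ± 0.18, adjusted p = 0.795, 95% interval -0.31 to 0.53 on Matrigel). Prdx1, whose window holds TGACTCAGC, differed by 0.00 ± 0.10, adjusted p = 1 (95% interval -0.22 to 0.22) on Matrigel.

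For the enzymes that remove superoxide and hydrogen peroxide, Cat and Sod2 were each called once and Sod1 never. Cat (Entrez 24248), peroxisomal catalase, had 8.61 and 8.56 on Matrigel, 8.21, 7.62 and 7.89 on collagen and 7.89, 7.71, 7.81 and 7.93 on plastic. Both Matrigel arrays lay above all others, with a rise of 0.75 ± 0.14 (adjusted p = 0.0137) that was lost without either Matrigel array (adjusted p = 0.0867 without A, 0.0593 without S). Against collagen Cat passed without collagen A (adjusted p = 0.0254). Sod2 (Entrez 24787), the mitochondrial manganese enzyme, had 12.25 and 12.15 on Matrigel, 12.39, 12.21 and 12.23 on collagen and 12.05, 11.78, 12.00 and 11.92 on plastic. All arrays on a matrix lay above all plastic arrays, and only collagen passed (0.34 ± 0.08, adjusted p = 0.0487, against 0.26 ± 0.09, adjusted p = 0.13 on Matrigel); the matrices did not differ past the threshold (-0.08 ± 0.10, adjusted p = 0.745). The collagen call was lost under 15 of 20 alternatives. Cytosolic Sod1 ranged from 9.62 to 9.80 over the 9 arrays.

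On the list of NADPH supply, 2 of the 3 genes with a row rose on Matrigel, Taldo1 and Tkt. Both encode enzymes of the non-oxidative branch of the pentose phosphate pathway, which rearranges sugar phosphates and does not itself make NADPH; Me1, whose enzyme does, did not pass (0.00 ± 0.11, adjusted p = 0.991). Taldo1 (Entrez 83688), transaldolase, had 10.01 and 9.78 on Matrigel, 9.38, 9.16 and 9.66 on collagen and 8.88, 8.97, 8.64 and 8.997 on plastic. Its 3 groups did not overlap, in the order Matrigel, collagen, plastic, and the rise was 1.02 ± 0.15 on Matrigel (adjusted p = 0.00472) and 0.53 ± 0.13 on collagen, which missed the threshold (adjusted p = 0.0585) and passed without collagen P (0.0451). Tkt (Entrez 64524), transketolase, had 9.73 and 9.72 on Matrigel, 9.20, 9.07 and 9.32 on collagen and 9.29, 9.37, 9.29 and 9.32 on plastic. The Matrigel arrays were nearly equal and above the rest, by 0.40 ± 0.08 against plastic (adjusted p = 0.014) and by 0.53 ± 0.08 against collagen (adjusted p = 0.0188). Without a Matrigel array the Tkt call against plastic was lost (adjusted p = 0.0747 without A, 0.0557 without S), and the call against collagen was lost under 8 of 20 alternatives. Malic enzyme Me1, whose window holds TGACTCAGC, had 7.39 and 7.25 on Matrigel, 6.87, 6.97 and 6.99 on collagen and 7.19, 7.49, 7.16 and 7.46 on plastic. Its collagen values lay below all plastic values (-0.38 ± 0.10, adjusted p = 0.0636), and with the title letter as a block the difference passed (-0.44, adjusted p = 0.0200), as it did without plastic S (adjusted p = 0.0479).

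None of the 4 haem and iron genes passed in any comparison. Hmox1 (Entrez 24451), the enzyme that opens haem, had 9.93 and 10.71 on Matrigel, 9.71, 9.55 and 10.04 on collagen and 9.97, 9.81, 10.90 and 9.71 on plastic. The S arrays were highest on both surfaces that have one, above 10.7, and no other array exceeded 10.04. The fitted difference was 0.22 ± 0.35 on Matrigel (adjusted p = 0.773, 95% interval -0.56 to 1.01), and -0.33 on collagen (adjusted p = 0.638). Between arrays of the same letter, Matrigel minus plastic was -0.04 for A and -0.19 for S, opposite in sign to the fitted value. The ferritin chains Fth1 and Ftl1, which store iron, were likewise highest in the S array of Matrigel and of plastic: Fth1 at 13.005 and 12.77, Ftl1 at 13.07 and 13.15. On collagen, which has no S array, the Z array was highest for Hmox1, Fth1 (12.50) and Ftl1 (12.84). The macrophage mean was also highest of its surface in those S arrays, at 7.48 on Matrigel and 7.04 on plastic, and in collagen Z (6.94). With that mean as a covariate the Matrigel difference of Hmox1 was -0.51 (adjusted p = 0.471). Blvrb, biliverdin reductase B, differed by -0.14 ± 0.17, adjusted p = 0.695 on Matrigel. Prdx1, Fth1, Ftl1, Cbr1 and Abcc4 have more than 1 row each; ferritin genes have near-identical copies that the probes may not separate.

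**Figure D3:**
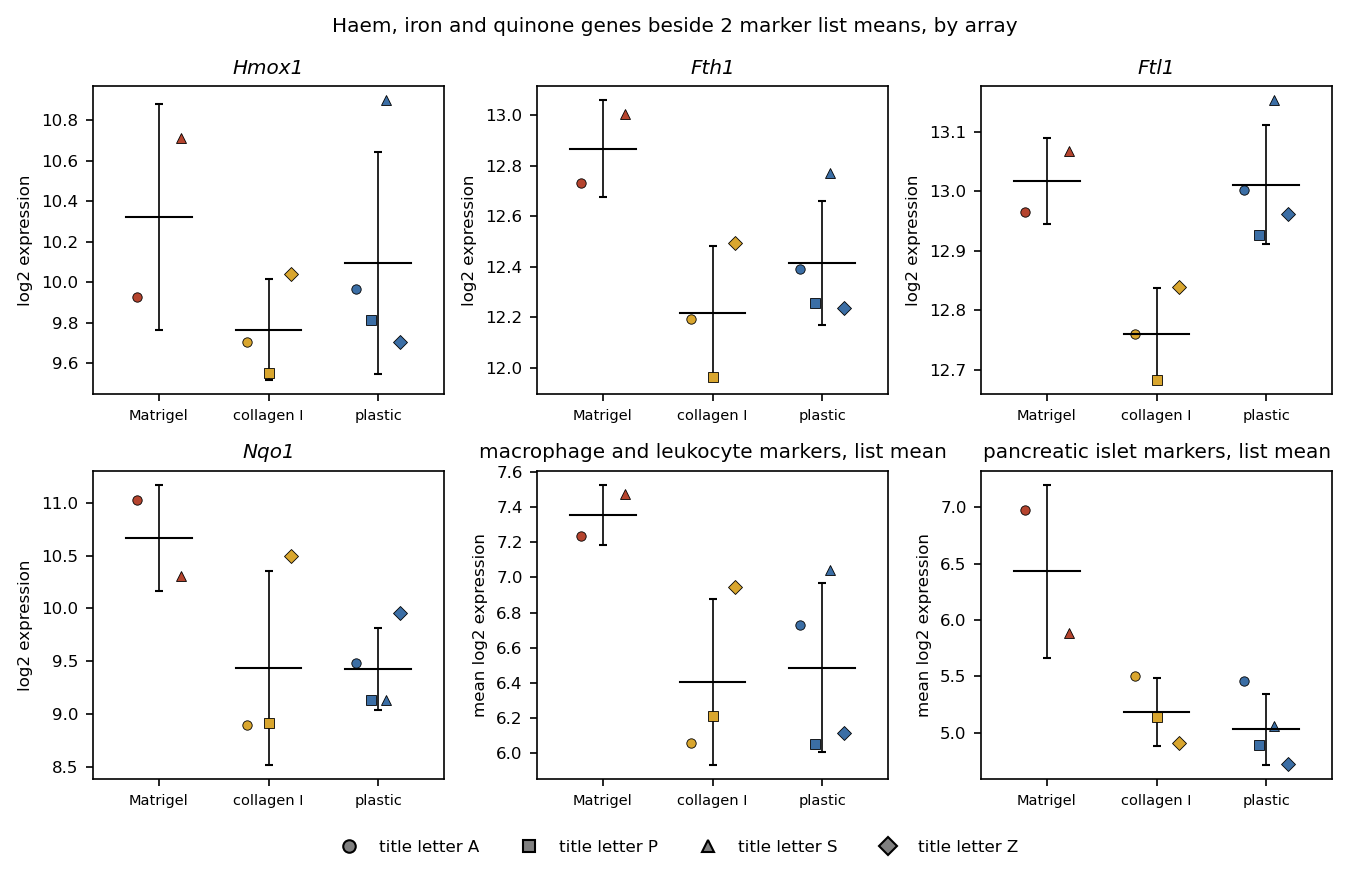
Log2 expression of Hmox1, Fth1, Ftl1 and Nqo1, and mean log2 expression of the macrophage and islet marker lists, by surface and array; shapes give the title letter, long lines the mean and bars 1 SD. The S arrays (triangles) are highest for Hmox1, both ferritin genes and the macrophage mean on Matrigel and plastic. The collagen Z array is highest on its surface for those and for Nqo1.

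Among quinone, carbonyl, epoxide and glucuronate genes, Ugdh was called on both matrices and the other 3 on neither. Ugdh (Entrez 83472), which makes the UDP-glucuronate used for conjugation and for hyaluronan, had 10.77 and 10.84 on Matrigel, 11.01, 11.13 and 11.31 on collagen and 11.71, 11.55, 11.52 and 11.67 on plastic. The groups did not overlap, with Matrigel lowest, and Ugdh fell by 0.81 ± 0.10 on Matrigel (adjusted p = 0.00203) and by 0.46 ± 0.09 on collagen (adjusted p = 0.0156). The collagen call was lost without collagen A, collagen P or plastic A (adjusted p = 0.0530 to 0.0667). The matrices differed by -0.34 ± 0.10, adjusted p = 0.135. Nqo1 (Entrez 24314), the NADPH quinone reductase used as a standard NRF2 readout, had 11.02 and 10.31 on Matrigel, 8.90, 8.92 and 10.49 on collagen and 9.48, 9.13, 9.13 and 9.96 on plastic. Both Matrigel arrays lay above all plastic arrays, but the spread within surfaces was wide, and the collagen Z array lay above the Matrigel S array. Nqo1 did not pass (1.24 ± 0.46, adjusted p = 0.139 on Matrigel, 95% interval 0.19 to 2.29). Without the collagen Z array it did (adjusted p = 0.0300), and likewise against collagen (adjusted p = 0.0491). Cbr1, a carbonyl reductase, and Ephx1, microsomal epoxide hydrolase, did not pass (-0.31 ± 0.11, adjusted p = 0.12 and -0.03 ± 0.09, adjusted p = 0.898 on Matrigel).

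For export, Abcc4 (Entrez 170924), a transporter of cyclic nucleotides and conjugates, had 7.28 and 7.11 on Matrigel, 6.74, 6.52 and 6.48 on collagen and 6.16, 6.36, 6.60 and 6.61 on plastic. Both Matrigel arrays lay above all others (0.76 ± 0.14, adjusted p = 0.012 against plastic), and the call was lost without the Matrigel A array (adjusted p = 0.0919). Its 2 other rows differed by 1.21 and 1.06 between Matrigel and plastic (adjusted p = 0.00596 and 0.00458 with every row tested). Against collagen the kept row did not pass (0.61 ± 0.15, adjusted p = 0.0733). Both other rows did (1.19 and 1.05, adjusted p = 0.0220 and 0.0188 with every row tested). Their collagen minus plastic differences were 0.02 and 0.01. Abcc1, which exports glutathione conjugates, missed the threshold (0.45 ± 0.12, adjusted p = 0.0502) and passed under 6 of 20 alternatives, a fit without plastic P among them (adjusted p = 0.0301). Osgin1, an oxidative stress-induced growth inhibitor, was dim on every surface, and its differences carry no reading.

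Of 162 other genes in the same pathways, 18 rose and 13 fell on Matrigel, 8 rose and 9 fell on collagen, and Matrigel exceeded collagen for 7 and lay below it for 4. Those totals compare with 4.52% and 5.85%, 2.95% and 3.17%, and 1.21% and 1.45% of all genes, in the same order. Among 34 further glutathione genes 5 rose and 5 fell on Matrigel. Ggt1, which splits extracellular glutathione, rose most surely (2.24 ± 0.23, adjusted p = 0.00114; on collagen 1.34 ± 0.21, adjusted p = 0.00663), along with the alpha-class transferase Gsta4 (1.12 ± 0.17, adjusted p = 0.00474). Gpx8, a peroxidase of the endoplasmic reticulum, fell (-0.77 ± 0.10, adjusted p = 0.00255). On collagen Ggt5 (1.10 ± 0.17, adjusted p = 0.00626) and the glutaredoxin Glrx (0.45 ± 0.09, adjusted p = 0.0175) rose too. The counts for these 34 were 3 higher and 2 lower on collagen against plastic, and 1 higher and 2 lower on Matrigel against collagen.

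In the other lists, Txnip, which binds and inhibits thioredoxin, fell on both matrices (-1.15 ± 0.13, adjusted p = 0.00151 on Matrigel and -1.26 ± 0.11, adjusted p = 0.000601 on collagen). Of 23 thioredoxin and superoxide genes 2 were called on Matrigel, Txnip and extracellular Sod3 (-0.59 ± 0.15, adjusted p = 0.0444). Mitochondrial Txnrd2 rose on collagen (0.53 ± 0.07, adjusted p = 0.00312). Among 27 iron and haem genes, the ferroxidase Cp (2.33 ± 0.43, adjusted p = 0.0123) and the iron transporter Slc11a2 (0.73 ± 0.13, adjusted p = 0.00968) rose on Matrigel and on collagen (1.73 ± 0.38, adjusted p = 0.0338; 0.67 ± 0.11, adjusted p = 0.0106). The haem transporter Slc48a1 was higher on Matrigel than on collagen (0.87 ± 0.17, adjusted p = 0.0405). Detoxification gave 7 rises and 2 falls among 33 on Matrigel, with Abcc3 (0.66 ± 0.08, adjusted p = 0.00199), an exporter of conjugates, and the P450 partner Por (0.73 ± 0.09, adjusted p = 0.00234) both higher, also against collagen (0.59 ± 0.08, adjusted p = 0.0145; 0.55 ± 0.10, adjusted p = 0.027). Of these 33, 0 rose and 1 fell on collagen, and 3 were higher and 0 lower on Matrigel than on collagen. Akr1b10, an aldose reductase relative, was dim on all surfaces.

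Among 28 further regulators, 4 rose and 4 fell on Matrigel. The small MAF Mafk fell (-0.72 ± 0.09, adjusted p = 0.00186; against collagen -0.60 ± 0.09, adjusted p = 0.0158), opposite to Mafg. The acetyltransferase Ep300 rose (0.60 ± 0.07, adjusted p = 0.00154), as did the retinoid X receptor Rxra (0.75 ± 0.13, adjusted p = 0.00894). On collagen, 1 rose and 5 fell: the aryl hydrocarbon receptor Ahr fell by 1.75 ± 0.15 (adjusted p = 0.000549), with Amer1 (-1.05 ± 0.22, adjusted p = 0.0272) and the autophagy kinase Ulk1 (-0.48 ± 0.08, adjusted p = 0.00835). Ulk1 was higher on Matrigel than on collagen (0.70 ± 0.09, adjusted p = 0.0138). Among 17 NADPH genes, Mthfd2, of mitochondrial folate metabolism, rose on collagen (0.64 ± 0.15, adjusted p = 0.0364) and was lower on Matrigel than on collagen (-1.25 ± 0.17, adjusted p = 0.0145).

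**Figure D4:**
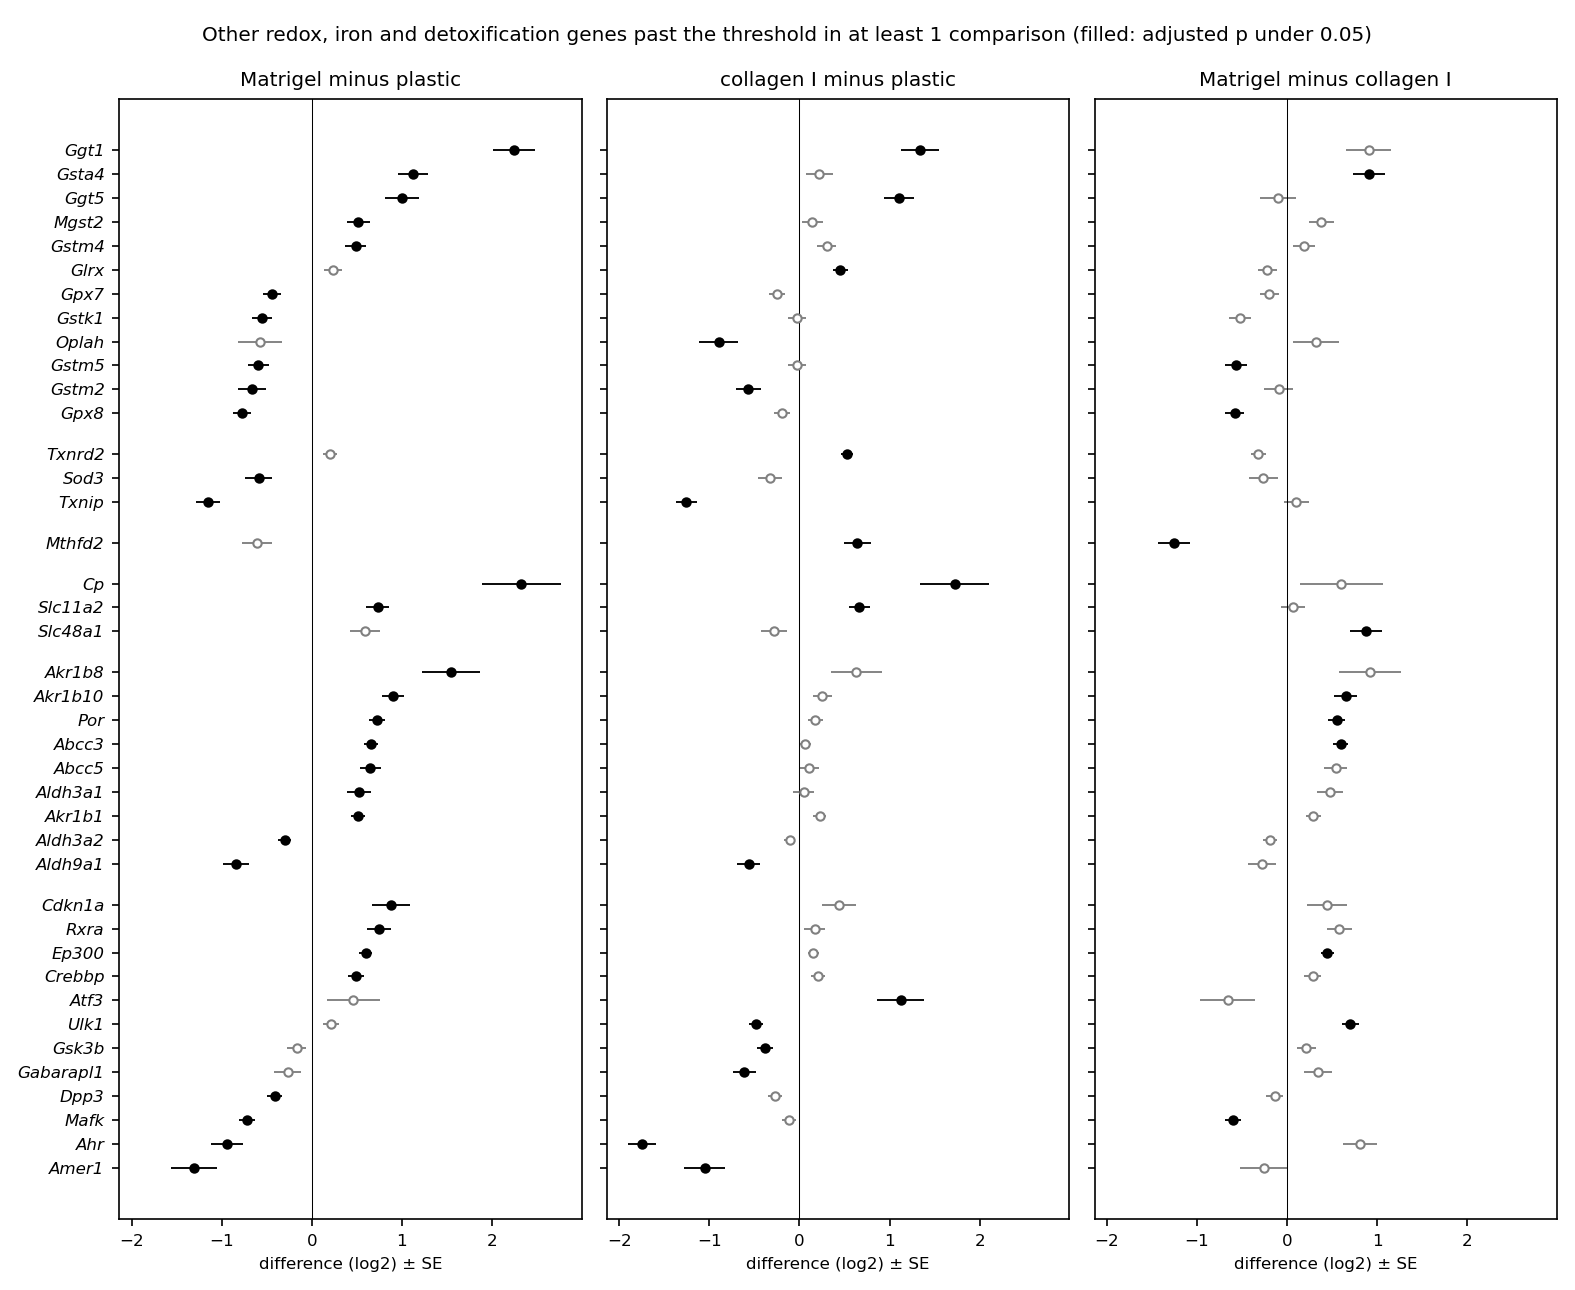
Fitted log2 differences with standard errors for 40 other redox, iron, detoxification and regulatory genes called in at least 1 comparison, in 3 panels, Matrigel minus plastic, collagen minus plastic and Matrigel minus collagen; filled points have an adjusted p under 0.05. Of the filled points, Ggt1 and Cp lie furthest right on Matrigel and Ahr furthest left on collagen; genes called in no comparison are not drawn.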

How the data were processed

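Total RNA was labelled with biotin and hybridised to Affymetrix Rat Gene 1.0 ST arrays, per the labels' protocols. The deposited values are log2 expression per probe set, made by the authors with RMA, per the submitters' processing notes; the probe annotation, which can be old, gave 1 symbol for 15310 of 29215 rows, several for 323 and none for 13582. Where a symbol had several rows the one with the highest mean was kept, leaving out 804 and testing 14506 genes. Groups were taken from the labelled surface. limma 3.58.1 in R 4.3.3 (lmFit, eBayes) fitted 1 mean per surface over all 9 arrays, with two-sided p adjusted by Benjamini-Hochberg over all genes. Precision is limited by the number of arrays. The fit was also run on simulated data, which is not used here as support for any result. Every gene of the set is named. Of the other pathway lists, counts and up to 3 called genes with the smallest p are given for some comparisons. Other called genes of those lists are not named. The genes and lists were chosen with earlier results of these data known. Deviations from the surface means correlated at 0.196 (A), 0.234 (P) and 0.269 (Z) between collagen and plastic arrays sharing a letter. Collagen A with plastic S, of unlike letters, reached 0.243, and the remaining unlike pairs lay between -0.243 and 0.00913. These correlations therefore do not settle whether a letter marks a pair. Matrigel A and S gave -0.131 and 0.406 with the plastic array of their own letter. With 2 arrays the deviations are mirror images (-0.406 and 0.406 with plastic S), so these are not separate evidence. The main fit did not use the letters. Alternatives covered filtering, re-scaling, row choice, array weights, the letter block, single arrays left out, and 3 fits added after seeing the data: plastic arrays A and S only, and 2 marker means as covariates.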

Additional observations from a re-analysis of the deposited data

Results flagged for a closer look

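Of 35 genes tested for 1 array far from the rest of its group, in the plastic group of 4 arrays, Maff alone was picked out, on the array of letter P. Its log2 value was 4.80 there, while the nearest plastic array stood at 4.997 and the farthest at 5.01. The gap was 0.916 of the whole range, above Dixon's limit for 4 samples. Chance flags about 1 in 20 groups.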

How the results depend on the processing

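Of the recomputed values of single genes, 1842 kept direction and side of the threshold, 134 lost a call, 31 gained one and 87 changed sign. Leaving out 1 array at a time, genes of the set higher on Matrigel than on plastic numbered 4 to 11 and lower 1 to 2, among 759 to 1461 genes called in all; on collagen, 2 to 3 were higher and 0 to 5 lower, among 552 to 870; Matrigel exceeded collagen for 1 to 5, among 68 to 352, and lay below it for 0 throughout. With plastic arrays A and S only, 6 were higher on Matrigel than on plastic among 628 genes called, 0 lower on collagen among 439, and 1 higher on Matrigel than on collagen among 90. With the macrophage mean, 3 were higher on Matrigel than on plastic among 469 genes and 0 than on collagen among 15; with the islet mean 0 were higher and 0 lower than on plastic among 32, and 0 higher than on collagen among 1. Matrigel against collagen gave 0 higher and 0 genes in all when fitted on those surfaces alone, 257 genes with array weights, and 0 higher among 66 genes with the replicate block on the title letter. That block left 10 higher and 1 lower on Matrigel among 1504 genes, and 3 higher and 4 lower on collagen among 1072. Re-centring every array moved the median of all genes on Matrigel against plastic from -0.01 to -0.07 and the split to 512 higher and 1036 lower, against 655 and 849, and against collagen the split to 122 and 259, against 176 and 211.

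The 87 sign changes belonged to differences without a call in either fit, and the cause was not tested. For Matrigel minus plastic, the islet mean gave -0.0385 for Nfe2l2, 0.173 for Gclm, 0.0917 for Gss, 0.164 for Prdx1, 0.0382 for Prdx6, 0.112 for Me1, 0.102 for Blvrb and 0.00957 for Ephx1. The macrophage mean gave -0.0308 for Maff, 0.157 for Me1, -0.51 for Hmox1, -0.144 for Ftl1 and 0.121 for Ephx1. Plastic A and S gave 0.0376 for Prdx1, 0.145 for Me1, -0.112 for Hmox1, -0.0611 for Ftl1 and 0.058 for Ephx1. The block gave 0.0265 for Gclc, 0.00901 for Gss, 0.0653 for Prdx1, 0.118 for Me1, -0.0518 for Hmox1, -0.0481 for Ftl1 and 0.0329 for Ephx1. Quantile normalization again gave 0.0704 for Gclc, 0.0791 for Prdx1, 0.0692 for Sod1 and 0.0102 for Me1, and re-centring -0.0564 for Ftl1. Over single arrays left out, Keap1 ran from -0.0566 to 0.0193, Maff from -0.0129 to 0.184, Gclc from -0.126 to 0.104, Txnrd1 from -0.00343 to 0.223, Prdx1 from -0.0494 to 0.0429, Me1 from -0.0738 to 0.0655, Hmox1 from -0.17 to 0.618, Ftl1 from -0.045 to 0.0572 and Ephx1 from -0.0772 to 0.0168. For collagen minus plastic, Sqstm1 was -0.0724 with plastic A and S, Cbr1 -0.0253 with the block, and Nqo1 -0.144 with the block, -0.216 with array weights and -0.00586 after re-centring. Over single arrays left out, Keap1 ran from -0.0636 to 0.00101, Gstm1 from -0.288 to 0.0311, Txnrd1 from -0.0123 to 0.276, Cat from -0.0791 to 0.216, Blvrb from -0.237 to 0.0974, Nqo1 from -0.519 to 0.278 and Cbr1 from -0.0256 to 0.0729. For Matrigel minus collagen, the islet mean gave -0.266 for Nfe2l2, 0.0285 for Bach1, 0.0201 for Maff, 0.376 for Gclm, 0.158 for Txnrd1 and 0.148 for Blvrb. The macrophage mean gave -0.0775 for Keap1, 0.0554 for Txnrd1 and -0.249 for Hmox1, and the block -0.0601 for Keap1, 0.302 for Txnrd1 and 0.0934 for Blvrb. Txnrd1 was 0.0018 with array weights and 0.0409 after quantile normalization, and Keap1 -0.0288 after re-centring. Over single arrays left out, Nfe2l2 ran from -0.025 to 0.305, Keap1 from -0.0182 to 0.0549, Gclm from -0.532 to 0.0609, Txnrd1 from -0.166 to 0.122 and Blvrb from -0.241 to 0.0938. With the block, Nqo1 (1.51, adjusted p = 0.0222) and Abcc1 (0.58, adjusted p = 0.00977) passed on Matrigel against plastic and Abcc4 did not (adjusted p = 0.0566). Mafg, Gstp1, Taldo1 and Ugdh kept their calls on Matrigel against plastic under every alternative other than the islet mean. Bach1 and Mafg kept their calls on collagen against plastic under all 20.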
